A study of Mus musculus with 6 samples.

Results

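The genes that make, cut and bind hyaluronan were measured in sorted PDPN+PDGFRα+ cells from MO5 tumors, together with versican, the large proteoglycan that hyaluronan holds in the matrix. The genes were chosen by name: Has1, Has2, Has3, Hyal1, Hyal2, Cemip, Vcan, Hapln3 and Cd44. All 9 were found among the 53801 genes of the table, 8 had counts, and the same 8 were among the 15133 genes tested. MO5 tumors grow from B16-OVA melanoma cells implanted under the skin of adult C57BL/6 mice, and their stromal cells were sorted by FACS with a gate that the study's methods give as CD45-CD31-PDPN+PDGFRα+. There were 2 groups of 3 libraries. DTR libraries came from ADAM12-DTR mice, which carry a bacterial artificial chromosome transgene that places the diphtheria toxin receptor under the Adam12 promoter, so that diphtheria toxin kills cells in which this promoter is active. Ctrl libraries came from littermates without the transgene, sex-matched per the study's methods. By the study's figure legend both groups received diphtheria toxin, so that the transgene is the difference set by the design. The paper also reports slower growth and less hypoxia in depleted tumors, so the tumors themselves differed in other ways. The labels do not give the day of sampling or whether a library holds cells of several animals, and p-values therefore measure the spread between these libraries. The comparison asks how the stromal cells that remain differ in tumors depleted of ADAM12+ cells.

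Hyaluronan is a long unbranched sugar polymer of the extracellular matrix. It is built at the cell membrane by hyaluronan synthases from UDP-glucuronic acid and UDP-N-acetylglucosamine, and is cut outside the cell and in lysosomes by hyaluronidases and by the hyaluronan-binding protein encoded by Cemip. Versican binds along the polymer and is held there by link proteins, and CD44 is the main cell-surface receptor. In tumors and healing wounds, fibroblasts are a known source of a matrix rich in hyaluronan and versican, which swells tissue and changes how immune cells move through it.

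The synthases are encoded by related genes on different chromosomes. Has1 lies at chr17:17843323-17855205 on the minus strand, Has2 at chr15:56665627-56694539 on the minus strand and Has3 at chr8:106870242-106884566 on the plus strand (GRCm38, GENCODE M21). The stretch of 60 coding bases in which Has2 is most alike to the others is shown because it bears on whether reads can be told apart between the synthases. Capitals mark positions at which the 3 genes do not all have the same base, and 43 of the 60 positions are the same in all.
Has1: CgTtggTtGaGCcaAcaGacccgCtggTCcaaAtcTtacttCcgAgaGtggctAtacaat
Has2: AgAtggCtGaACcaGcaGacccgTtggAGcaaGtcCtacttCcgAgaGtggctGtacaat
Has3: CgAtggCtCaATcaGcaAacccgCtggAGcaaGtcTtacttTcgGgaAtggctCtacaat
Across the whole coding sequences, the longest run of bases shared with Has2 was 17 for Has1 and 23 for Has3, and Has1 and Has3 shared a run of 17. No stretch of 50 transcribed bases of Has1 occurs in another annotated gene, so its counts are not shared with the other synthases.

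Some members share bases with neighbours. In Has2, 4.30% of exon bases lie opposite the antisense gene Has2os, and in Has3, 5.52% lie opposite Chtf8, which the authors' counting by strand keeps apart. For Hyal1, 51.9% of exon bases are also annotated on the same strand to Hyal3 or Naa80, so its counts depend on how such reads were assigned and are uncertain. The remaining genes share no exon bases with another gene. Hyal2 and Hyal1 are neighbours at chr9:107567945-107572779 and chr9:107576927-107581710, and Vcan at chr13:89655312-89742509 lies 43659 bases from Hapln1. Cemip is at chr7:83932857-84086502, Hapln3 at chr7:79115102-79131018 and Cd44 at chr2:102811141-102901665.

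Promoter sequence is shown for Has1 and Vcan, which varied together between the libraries, and for Cd44, which hardly varied. Each is 230 bases upstream of the RefSeq start (GRCm38.p6), written in the direction of transcription, at chr17:17855209-17855438, chr13:89742533-89742762 and chr2:102901686-102901915, all on the minus strand. Capitals mark matches, on either strand, to a TATA box (TATAAA), a GC box (GGGCGG), the core of the hypoxia response element (ACGTG) or an AP-1 site (TGANTCA).
Has1: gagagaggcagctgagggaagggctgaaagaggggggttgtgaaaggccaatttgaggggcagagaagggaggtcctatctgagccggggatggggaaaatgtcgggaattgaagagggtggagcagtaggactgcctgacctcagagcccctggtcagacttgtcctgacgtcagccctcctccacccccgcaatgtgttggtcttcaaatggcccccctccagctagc
Vcan: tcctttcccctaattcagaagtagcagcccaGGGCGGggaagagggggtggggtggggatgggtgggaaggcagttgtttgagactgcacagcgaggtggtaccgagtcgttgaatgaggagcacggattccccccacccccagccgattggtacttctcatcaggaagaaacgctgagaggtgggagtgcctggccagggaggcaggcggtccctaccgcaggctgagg
Cd44: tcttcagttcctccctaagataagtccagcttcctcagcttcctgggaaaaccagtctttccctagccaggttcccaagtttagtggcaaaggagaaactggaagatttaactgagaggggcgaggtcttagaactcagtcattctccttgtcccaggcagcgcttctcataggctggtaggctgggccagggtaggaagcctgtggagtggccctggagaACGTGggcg
The Vcan window held 1 GC box and the Cd44 window 1 ACGTG, while none of the 4 motifs was in the Has1 window. Over 32851 RefSeq promoters of the same length, 11.8% held TATAAA, 29.8% GGGCGG, 15.1% ACGTG and 6.3% TGANTCA. These matches describe letters only.

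Between 22339635 and 34271929 reads were counted on genes per library, with totals of 25094827, 24881317 and 27566235 in Ctrl and 34271929, 30748764 and 22339635 in DTR. Levels are given in CPM (each count divided by the library total and rescaled to a common size), and 3 counts, taken as the floor of detection, stand for 0.0875 to 0.134 CPM, which covers counting error only. The targeted promoter's own gene, Adam12, was at 188 ± 19.7 CPM in Ctrl and 144 ± 27.1 CPM in DTR (SD, n = 3). Its DTR libraries were below all Ctrl libraries, as for 6.35% of all genes tested, and its log2 fold change was -0.42 with an adjusted p of 0.602, or -0.27 without DTR replicate 3. Pdgfra, at 41.0 to 134 CPM, and Pdpn, at 44.2 to 101 CPM, were present in every library. All 10 melanocyte markers were also present, with summed levels of 16223.9 to 19265.3 CPM in Ctrl and 15782.3 to 18587 CPM in DTR, so that pigment genes outweighed the 10 mesenchymal markers, which summed to 5040.2 to 13359 CPM in Ctrl and 5666 to 14381 CPM in DTR. Pericyte and smooth muscle markers summed to 22.8 to 50.5 CPM in Ctrl and 16.5 to 22.7 CPM in DTR. These sums did not overlap but were nearly level at their closest, 22.828 CPM in Ctrl replicate 2 and 22.668 CPM in DTR replicate 2. Of the 6 tested, 5 had log2 fold changes below 0 and 1 above, from -1.31 for Acta2 to 0.39 for Myh11. Single-gene levels were lower in DTR without overlap for 1 of them, beside 6.35% of all genes tested. The list median was -0.82, or -0.31 without Ctrl replicate 1. Lists for other cell types overlapped between the groups, at 109 to 176 CPM for macrophages, 7.77 to 52.2 CPM for T and NK cells, 34.5 to 109 CPM for endothelial cells, 1.38 to 7.49 CPM for neutrophils and 2.45 to 5.54 CPM for keratinocytes. Ly6g, Camp, Krt1, Dsg3 and the main of 2 rows named Itgam were at 0 in all 6 libraries. In RNA of sorted populations, fewer cells of a type and less RNA per cell cannot be told apart.

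No member of the group passed the test between DTR and Ctrl. In the edgeR quasi-likelihood fit, with Benjamini-Hochberg adjustment for every gene tested, 0 of 8 members had an adjusted p under 0.05, and neither did any of the 15133 genes tested (0.0%). At an unadjusted p under 0.05 there was 1 member, Hyal1, beside 1199 of all genes (7.92%), and 1 of so few members is no result about them against that background. DESeq2's Wald test called 0 members and 31 of 20360 genes (0.152%). On levels alone, the groups did not overlap for 1 member, again Hyal1, which was lower in DTR, as were 961 of the genes tested (6.35%). No member was higher in every DTR library than in every Ctrl library, which held for 7.18% of genes. The median log2 fold change of the 8 members was 0.10, against -0.0029 over all genes tested, with 5 members above 0 and 3 below, and was -0.02 without DTR replicate 3.

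**Figure D1:**
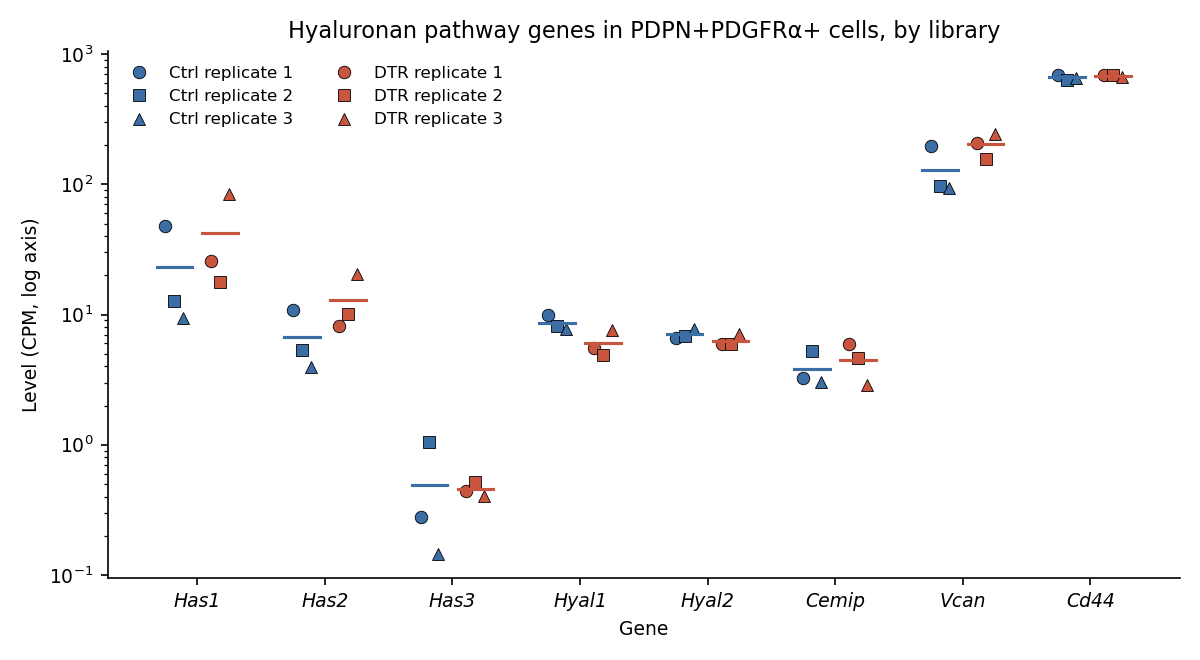
Level of each gene in CPM (log axis) in the 3 Ctrl libraries (blue) and the 3 DTR libraries (red), with the replicate given by the symbol and the group mean by a bar. Has1, Has2 and Vcan span wide ranges within each group and peak in DTR replicate 3, Hyal1 is the gene whose groups do not overlap, and Cd44 stays between 636 and 695 CPM. Hapln3, at 0 throughout, is not drawn.

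Has1 and Has2 had higher means in DTR, with a spread within each group as wide as the difference between them. Has1, the synthase known to answer to inflammatory signals in fibroblasts, was at 48.0, 12.7 and 9.32 CPM in Ctrl replicates 1 to 3 and at 26.0, 17.8 and 83.8 CPM in DTR replicates 1 to 3. The highest level was in DTR replicate 3 and the next highest in Ctrl replicate 1, so the groups overlapped, while Ctrl replicates 2 and 3 lay below every DTR library. The means were 23.3 ± 21.4 CPM in Ctrl and 42.5 ± 36.0 CPM in DTR (SD, n = 3), and within Ctrl alone the highest library exceeded the lowest 5.15-fold. The log2 fold change was 0.82 with a standard error of 0.735 and a 95% interval from -0.88 to 2.51 (adjusted p = 0.776). The log2 fold change was -0.13 without DTR replicate 3 and 1.92 without Ctrl replicate 1. Without both of these libraries, an alternative chosen after seeing the data, it was 0.97 with an adjusted p of 0.554.

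Has2 encodes the synthase that the developing heart and most mesenchymal tissues depend on. It was measured at 10.9, 5.39 and 3.95 CPM in Ctrl and at 8.14, 10.02 and 20.6 CPM in DTR, from 109 to 460 counts per library. Only Ctrl replicate 1 lay among the DTR libraries, and it lay above 2 of them. The means were 6.74 ± 3.66 CPM and 12.9 ± 6.71 CPM (SD, n = 3), and the two-sided exact permutation test on log2(CPM + 0.5) gave p = 0.30, where 3 libraries against 3 cannot give less than 0.10. In the fit across all genes the log2 fold change was 0.89 with a standard error of 0.462, from -0.17 to 1.96 in the 95% interval (adjusted p = 0.652). It was 1.43 without Ctrl replicate 1 and 0.40 without DTR replicate 3, and it was above 0 with any single library left out. Without both of those libraries it was 0.94 (adjusted p = 0.567). DESeq2's Wald test gave Has2 an unadjusted p of 0.0255, beside 4.89% of all genes under 0.05, and an adjusted p of 0.650. The antisense gene Has2os had 19, 1 and 4 counts in Ctrl and 31, 21 and 70 counts in DTR, with its highest count in the same library as Has2.

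Has3, whose product makes shorter hyaluronan chains, was close to the floor. It had 7, 26 and 4 counts in Ctrl and 15, 16 and 9 counts in DTR, which is 0.145 to 1.045 CPM over the 6 libraries. The Ctrl libraries lay on either side of all DTR libraries, and the interval of the difference was wide (log2 fold change -0.15, 95% interval -1.93 to 1.63, adjusted p = 0.964). Its sign was that of Ctrl replicate 2, without which the log2 fold change was 1.07.

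The share of each synthase in the summed level per length of exon overlapped between the groups. Has1 made up 80.3, 66.1 and 68.3% in Ctrl and 74.3, 61.7 and 79.0% in DTR, and was the most abundant synthase in every library. Has2 made up 19.4 to 37.0% and Has3 0.3 to 3.9%. Per length, Has1 exceeded Has2 most in Ctrl replicate 1, at 4.14-fold, and least in DTR replicate 2, at 1.67-fold, so that the order of the synthases was the same in all libraries while their ratio was not.

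The UDP-sugar precursors of hyaluronan are supplied by enzymes of which 8 were listed and tested. None passed the adjusted threshold in either direction, 6 had log2 fold changes above 0, and the median was 0.28, or 0.11 without DTR replicate 3. The highest was Gfpt2, an isoenzyme of the first step of the hexosamine pathway, at 109, 47.6 and 54.4 CPM in Ctrl and 105, 58.1 and 294 CPM in DTR. Its log2 fold change was 1.08 with a standard error of 0.569 (adjusted p = 0.653) and 0.18 without DTR replicate 3, so that a single library carried most of it. The lowest was Gfpt1, the widespread isoenzyme of that step, at -0.07 with a standard error of 0.0973. Ugdh, which makes UDP-glucuronic acid, is named here after its values were seen, and was at 79.4, 46.9 and 60.5 CPM in Ctrl and 76.5, 73.6 and 130 CPM in DTR (log2 fold change 0.55, adjusted p = 0.630, and 0.24 without DTR replicate 3). The levels of Gfpt2 and Ugdh were highest in DTR replicate 3 and next highest in Ctrl replicate 1, as were those of Has1 and Has2. This order is not particular to these genes. The summed mesenchymal markers were also highest in DTR replicate 3, at 14381 CPM, and next highest in Ctrl replicate 1, at 13359 CPM. The cause of this order was not tested.

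**Figure D2:**
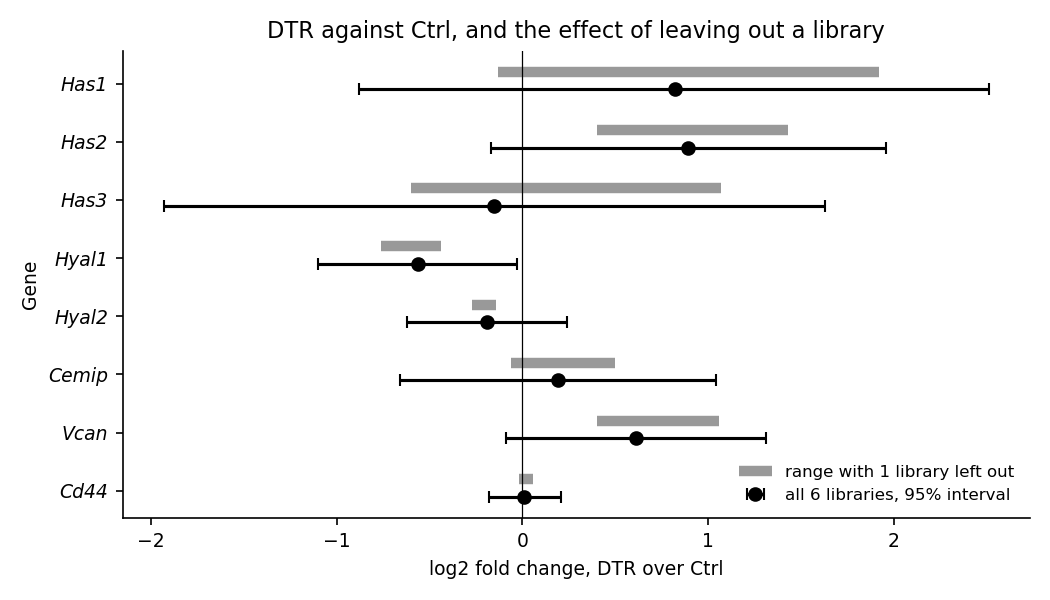
Log2 fold change of DTR over Ctrl for each gene, with its 95% interval over all 6 libraries (black), and the range of the log2 fold change when each library in turn was left out (grey). The intervals of all genes but Hyal1, which ends at -0.03, include 0, and the grey range of Has1 runs from -0.13 to 1.92.

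Among the genes for breakdown, Hyal1 was lower in DTR by a margin that did not pass adjustment. Hyal1 encodes the lysosomal hyaluronidase that cuts the polymer to small fragments. It was at 10.002, 8.20 and 7.80 CPM in Ctrl and at 5.51, 4.91 and 7.61 CPM in DTR. The groups did not overlap, but the lowest Ctrl and the highest DTR library were nearly level. The means were 8.67 ± 1.17 CPM and 6.01 ± 1.42 CPM (SD, n = 3), and the exact permutation test gave p = 0.10, the smallest it can give. The log2 fold change was -0.56 with a standard error of 0.232 and an interval from -1.10 to -0.03, with an unadjusted p of 0.0418 and an adjusted p of 0.608 by edgeR's quasi-likelihood test. It stayed between -0.76 and -0.44 with any single library left out. The bases shared with Hyal3 and Naa80 apply to each of these values. Hyal3 itself was at 0.358 to 0.976 CPM, and Naa80, listed in the table under its former name Nat6, was at 0 in all libraries. That 0 is not read as an absent transcript, and it does not settle how reads from the shared bases were assigned.

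Hyal2, which encodes the membrane-anchored enzyme that makes the first cuts, was nearly even. It was at 6.58, 6.79 and 7.73 CPM in Ctrl and at 5.92, 5.92 and 7.03 CPM in DTR. The highest DTR library exceeded the lower 2 Ctrl libraries (log2 fold change -0.19, standard error 0.186, 95% interval -0.62 to 0.24, adjusted p = 0.795). The counts of Hyal2 are not shared with its neighbour Hyal1.

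Cemip encodes a protein that binds hyaluronan and is needed for its breakdown in skin fibroblasts. It was at 3.27, 5.22 and 3.01 CPM in Ctrl and 5.92, 4.62 and 2.86 CPM in DTR, so that the lowest and the highest library were both DTR. The log2 fold change was 0.19 with a 95% interval from -0.66 to 1.04 (adjusted p = 0.905), and -0.06 without DTR replicate 1. Unlike Has1 and Has2, Cemip was lowest in DTR replicate 3.

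The list for breakdown beyond the members held 9 names, of which 8 were in the table and 4 were tested. All 4 had log2 fold changes below 0 and none passed adjustment. The median was -0.15, against -0.0029 over all genes tested, and was -0.03 without DTR replicate 3. The lowest was Hexa, which encodes a lysosomal enzyme subunit that trims the fragments, at 202, 224 and 224 CPM in Ctrl and at 187, 196 and 180 CPM in DTR. The groups did not overlap for Hexa, as for 6.35% of all genes tested that were lower in DTR (log2 fold change -0.24, standard error 0.0838, adjusted p = 0.602). The highest was Tmem2, a cell-surface protein with hyaluronidase activity, at -0.04 with a standard error of 0.116. Hyal4, Hyal5, Hyal6 and Spam1, which are known mainly from testis and a few other tissues, were at 0 in all libraries.

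Vcan was the most abundant secreted matrix gene of the group and had a higher mean in DTR that did not pass the test. It was at 197, 97.6 and 93.2 CPM in Ctrl and 209, 156 and 242 CPM in DTR, from 2428 to 7175 counts per library. Ctrl replicate 1 lay within the DTR range, and the other Ctrl libraries lay below it. The means were 129 ± 58.8 CPM and 203 ± 43.6 CPM (SD, n = 3), with p = 0.20 in the exact permutation test. The log2 fold change was 0.61 with a standard error of 0.304 and a 95% interval from -0.09 to 1.31 (adjusted p = 0.647). It was 1.06 without Ctrl replicate 1, where edgeR's adjusted p was 0.582, and 0.40 at the lowest with another single library left out. Without both Ctrl replicate 1 and DTR replicate 3 it was 0.92 with an adjusted p of 0.249. Counts per gene do not separate the splice forms of versican, which differ in how much chondroitin sulfate they carry.

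Hapln3, a link protein gene, had 0 counts in all 6 libraries, which allows up to 0.0875 to 0.134 CPM per library as far as counting error goes. Oat, an enzyme gene active in most cells, and Chst15 were also at 0 in every library (both named after their values were seen), so an absent count in this table is not read as an absent transcript. Hapln1, whose gene lies beside Vcan, was at 17.9, 16.9 and 24.5 CPM in Ctrl and 18.4, 20.5 and 18.8 CPM in DTR. It had the lowest log2 fold change of the binding proteins tested, -0.06 with a standard error of 0.148 (adjusted p = 0.927), so that the group means of the link protein differed by less than its spread.

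Of 16 listed genes for hyaluronan-binding proteins and their relatives, 5 were tested and none passed adjustment, with a median log2 fold change of 0.65. The highest was Itih5, a heavy chain of the inter-alpha-trypsin inhibitor family, whose relatives are bound to hyaluronan, at 74.9, 39.3 and 47.8 CPM in Ctrl and 123, 50.7 and 278 CPM in DTR. DTR replicate 2 lay among the Ctrl libraries (log2 fold change 1.44, standard error 0.541, adjusted p = 0.602). For Itih5 the log2 fold change was 0.66 without DTR replicate 3 and 0.62 with a covariate for the level of the mesenchymal markers. Tnfaip6, which transfers heavy chains to hyaluronan, and Ptx3, which crosslinks them, are named after their values were seen and had log2 fold changes of 0.92 and 0.65 with standard errors of 0.667 and 0.626. Leaving out a single library moved Tnfaip6 between 0.02 (without DTR replicate 3) and 1.79 (without Ctrl replicate 1), and Ptx3 between -0.18 and 1.31 for the same libraries, so that the sign of Ptx3 turned. With a covariate for the mesenchymal markers they stood at 0.21 and -0.20. Tnfaip6 was at 83.1, 28.6 and 20.1 CPM in Ctrl and 53.9, 37.2 and 167 CPM in DTR, in the same order over the 6 libraries as Has1. The median of the list was -0.04 without DTR replicate 3 and 1.31 without Ctrl replicate 1.

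Proteases that cut versican were all measured, with none of 6 past the threshold and a median log2 fold change of 0.31, which was 0.61 without Ctrl replicate 1 and 0.16 without DTR replicate 3. The highest was Adamts15 at 41.1, 21.1 and 17.4 CPM in Ctrl and 39.4, 20.8 and 77.8 CPM in DTR (log2 fold change 0.75, standard error 0.487, adjusted p = 0.696), and its log2 fold change was 0.15 without DTR replicate 3 and 1.23 without Ctrl replicate 1. The lowest was Adamts4 at -0.05 with a standard error of 0.122. Adamts15 was high in the libraries in which Vcan was high, and Adamts4 varied little, between 36.4 and 46.2 CPM.

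Of the 20 listed genes that build and sulfate the chondroitin sulfate chains of versican, 16 were tested, none passed adjustment and the median log2 fold change was 0.07, or 0.16 without Ctrl replicate 1. The highest was Ust, which adds sulfate to the uronic acid of the chain, at 25.03, 22.99 and 24.7 CPM in Ctrl and 29.3, 35.5 and 47.6 CPM in DTR. All DTR libraries were above all Ctrl libraries (log2 fold change 0.60, standard error 0.171, adjusted p = 0.602, and 0.39 without DTR replicate 3). The lowest was B3gat3, which completes the linker between chain and protein, at 12.99, 13.02 and 15.02 CPM in Ctrl and 11.8, 11.4 and 11.1 CPM in DTR (log2 fold change -0.28, adjusted p = 0.631). Its groups did not overlap either. Across the list this held for 1 gene higher and 3 genes lower in DTR, beside 7.18% and 6.35% of all genes tested, and with TMM-scaled library sizes for 2 genes higher and 1 gene lower.

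**Figure D3:**
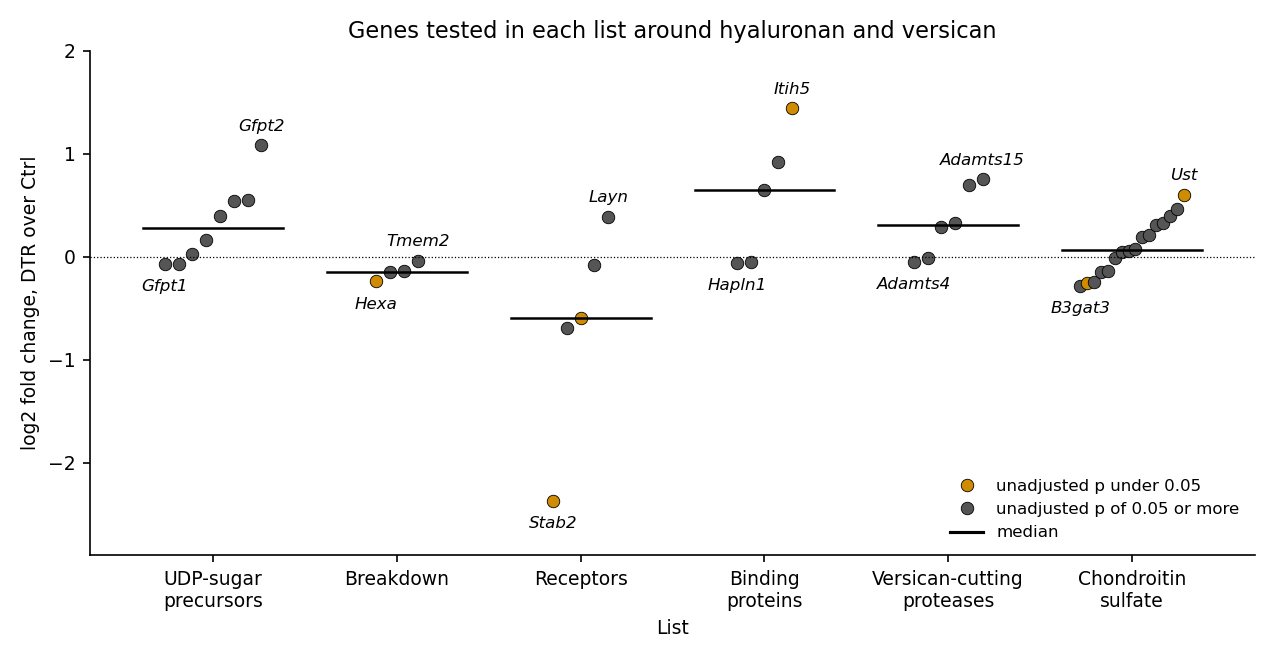
Log2 fold change of DTR over Ctrl for every tested gene of the 6 lists, with the list median as a line, the lowest and highest gene named, and genes with an unadjusted p under 0.05 in orange. Over all 6 libraries the binding proteins have the highest median, at 0.65, and the receptors the lowest, at -0.60, where Stab2 stands at -2.37. This order depends on single libraries. The median is -0.04 for the binding proteins without DTR replicate 3 and 0.02 for the receptors without Ctrl replicate 1.

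Cd44 was the most even member, with a fold change near 0 and a narrow interval. It was at 692, 636 and 658 CPM in Ctrl and 689, 695 and 664 CPM in DTR, from 14842 to 23629 counts per library. The lowest and the highest library differed 1.09-fold. The log2 fold change was 0.01 with a standard error of 0.0832 and a 95% interval from -0.18 to 0.21 (adjusted p = 0.968). Cd44 is also active in melanoma and immune cells, and counts per gene do not separate the variant exons that make its longer forms.

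The other hyaluronan receptors numbered 6, of which 5 were tested, and 0 passed adjustment in either direction. The lowest was Stab2, the clearance receptor of sinusoidal endothelium, at 0.717, 0.683 and 1.05 CPM in Ctrl and 0.175, 0.195 and 0.0895 CPM in DTR. All Ctrl libraries were above all DTR libraries (log2 fold change -2.37, standard error 0.565, edgeR's adjusted p = 0.602). The DTR libraries held 6, 6 and 2 counts of Stab2, the last below the floor of 3 counts, so the size of this fold change is uncertain. The highest was Layn, at 0.39 with a standard error of 0.463, which was -0.03 without DTR replicate 3 and 0.97 without Ctrl replicate 1. Stab1, a related receptor of macrophages and endothelium named after its values were seen, was at 9.21, 9.32 and 8.85 CPM in Ctrl and 7.41, 5.89 and 5.10 CPM in DTR, without overlap (log2 fold change -0.60, adjusted p = 0.602). Of the 5 receptors tested, these 2 were lower in DTR without overlap, beside 6.35% of all genes tested, and so few genes are no result about the list. The 8 endothelial markers summed to 34.5 to 43.3 CPM in Ctrl and 43.1 to 109 CPM in DTR, with log2 fold changes above 0 for 4 and below 0 for 3 of the 7 tested, from -1.53 for Cdh5 to 1.84 for Tek. Their median was 0.51, or 0.02 without DTR replicate 3. Tek, at 63.8 CPM in DTR replicate 3, made up much of the highest sum. Vwf was the 1 gene of the 7 tested whose groups did not overlap, higher in DTR, beside 7.18% of all genes tested (log2 fold change 0.51, edgeR's adjusted p = 0.602). The macrophage markers summed to 109 to 176 CPM and 131 to 139 CPM, with log2 fold changes above 0 for 3 and below 0 for 5 of the 8 tested, from -0.57 for Mrc1 to 0.31 for Adgre1. Mrc1 was the 1 gene of the 8 tested whose groups did not overlap, lower in DTR, beside 6.35% of all genes tested (edgeR's adjusted p = 0.602). Their part in the levels of Stab1 and Stab2 was not tested. The median of the receptor list was -0.60 over all libraries, 0.02 without Ctrl replicate 1 and 0.24 without both Ctrl replicate 1 and DTR replicate 3. With at least 10 counts required in every library it was -0.07.

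Per kilobase of exon, Cd44 was far above the other members, at 97.7 ± 4.18 CPM per kilobase in Ctrl and 101 ± 2.40 in DTR (SD, n = 3). Vcan followed at 8.94 ± 4.06 and 14.002 ± 3.02 on this scale and Has1 at 5.16 ± 4.74 and 9.41 ± 7.96, and the ranges of these neighbours overlapped. Has2 at 1.59 ± 0.863 and 3.05 ± 1.58, Hyal2 at 2.14 ± 0.186 and 1.91 ± 0.194 and Hyal1 at 2.29 ± 0.311 and 1.59 ± 0.375 were not separable from each other by their ranges. Cemip, at 0.314 ± 0.0990 and 0.365 ± 0.125, lay below all of these in every library, and Has3, at 0.0768 ± 0.0761 and 0.0711 ± 0.00946, below Cemip. With the longest annotated transcript as the length, 5 of the 8 genes kept their place, as Hyal1 moved above Has2 and Hyal2, while Cd44, Vcan and Has1 remained at the top. The place of Hyal1 is uncertain on either length, as 51.9% of its exon bases are also annotated to Hyal3 or Naa80.

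**Figure D4:**
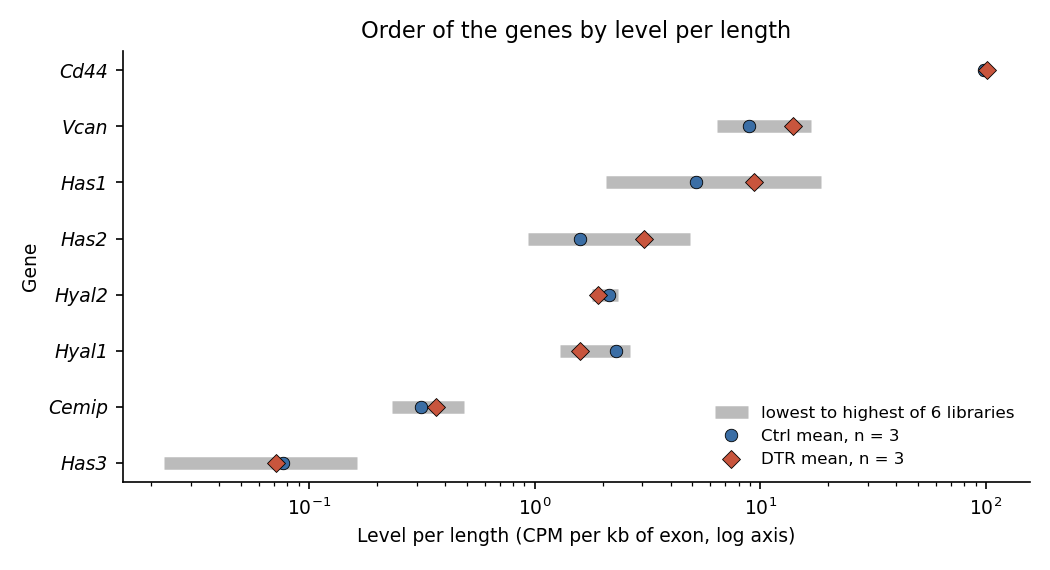
Level per length of each gene on a log axis, with the Ctrl mean (circle), the DTR mean (diamond) and the lowest to highest of the 6 libraries as a bar. Cd44 stands apart above 93.8 CPM per kilobase, Has2, Hyal2 and Hyal1 overlap, and Has3 is the lowest of the genes with counts.

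The members separated into genes that varied with the mesenchymal markers between libraries and genes that did not. The summed mesenchymal markers were at 13359, 5040.2 and 5383.7 CPM in Ctrl replicates 1 to 3 and at 10915, 5666 and 14381 CPM in DTR replicates 1 to 3. From highest to lowest, the libraries stood in the same order for Has1 as for this sum, except that Ctrl replicates 2 and 3 changed places. For Vcan, DTR replicate 1 also stood above Ctrl replicate 1. For Has2, DTR replicate 2, with few mesenchymal transcripts, stood above DTR replicate 1. Hyal1, Hyal2, Cemip and Cd44 did not follow this order, and Cd44 was at 636 CPM where the markers were lowest and at 664 CPM where they were highest.

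**Figure D5:**
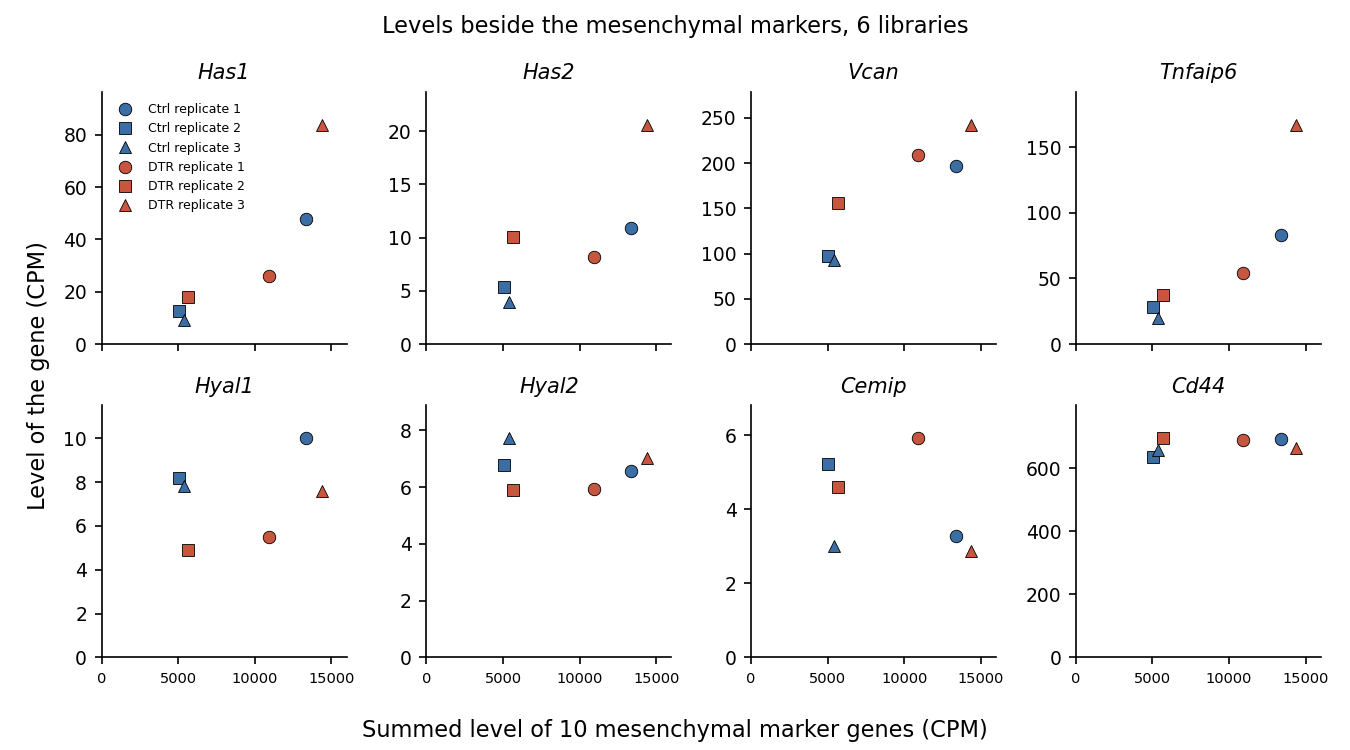
Level of 8 genes (CPM) against the summed level of 10 mesenchymal marker genes (CPM) in the 3 Ctrl (blue) and 3 DTR (red) libraries. Has1, Has2, Vcan and Tnfaip6 are highest in DTR replicate 3, which has the highest marker sum, 14381 CPM, while Hyal2, Cemip and Cd44 are not.

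With the mean log2 level of these markers as a covariate, an alternative chosen after seeing the data, the log2 fold change was 0.11 for Has1, 0.55 for Has2 and 0.39 for Vcan, each nearer to 0 than without it. Hyal1 moved away from 0, to -0.73 with an adjusted p of 0.618, as did Cemip, to 0.40 with an adjusted p of 0.820, and Has3 changed sign, to 0.33. As a percentage of the summed markers, Has2 was at 0.0814, 0.107 and 0.0734% in Ctrl and at 0.0746, 0.177 and 0.143% in DTR. On the same scale Vcan was at 1.48, 1.94 and 1.73% in Ctrl and at 1.92, 2.75 and 1.68% in DTR, so that the groups overlapped for both genes. Hyal1, at 0.0749, 0.163 and 0.145% in Ctrl and 0.0505, 0.0867 and 0.0529% in DTR, also overlapped on this scale.

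The genes most like a member over the 6 libraries were taken among the 8794 tested genes with a mean of at least 10 CPM, by Pearson's r of log2(CPM + 0.5), as a description over points that share only 2 groups and one tumor type. For Has2 they were Zmiz1 (r = 0.987), Il13ra1 (r = 0.987) and Dlc1 (r = 0.984). For Vcan they were Aspn (r = 0.991), which encodes a small matrix proteoglycan, the noncoding RNA Rian (r = 0.990) and Ldlrad4 (r = 0.987). For Cd44, with its narrow range, they were the noncoding 5430416N02Rik (r = 0.983), Nop58 (r = 0.979) and Atf1 (r = 0.974). Between members, r was 0.936 for Has1 with Has2, 0.905 for Has1 with Vcan and 0.889 for Has2 with Vcan. With this measure 40 of the genes compared were closer to Has2 than Has1 was, and 144 were closer to Vcan than Has2 was.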

How the data were processed

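RNA from PDPN+PDGFRα+ cells of MO5 tumors was sequenced in 3 Ctrl and 3 DTR libraries made with a stranded kit. The authors trimmed reads with cutadapt 3.4, aligned them to GRCm38 with STAR 2.7.3a and counted them per gene by strand with featureCounts 2.0.1, and deposited raw counts, which were used here. Their normalized values and their comparison of the groups (fold changes and p-values) were not used.

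Genes were kept by filterByExpr (minimum count 10, minimum total 15) and scaled by TMM. DTR was compared with Ctrl by edgeR 4.0.16's quasi-likelihood test (glmQLFit, two-sided, Benjamini-Hochberg adjustment over 15133 genes, threshold 0.05) in R 4.3.3, with a common dispersion of 0.0662. The 95% intervals use 7.94 degrees of freedom. Levels are counts over the library total, at 22339635 counts or more per library. Single genes were also compared by exact permutation. DESeq2 1.42.0, other scalings and filters, robust moderation, a replicate block and each library left out were alternatives. A covariate for the mesenchymal markers and the removal of both Ctrl replicate 1 and DTR replicate 3 were added after seeing the data. The steps were tested on simulated data. Exon lengths and positions come from GENCODE M21, and 7 of the 9 members matched a RefSeq promoter.

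The members, lists and rules were chosen with earlier results of these data known. The rule for named genes took the 9 members, the lowest and highest gene of each list and any past the threshold, Adam12, Pdgfra and Pdpn, and the 3 genes most like Has2, Vcan and Cd44, with markers by list. Other genes with values are neighbours or antisense partners of members, or were named after their values were seen. A gene of the breakdown list is not reported here.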

Additional observations from a re-analysis of the deposited data

How the results depend on the processing

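The count of all genes past the threshold was 0 with the quasi-likelihood test and 31 with DESeq2's Wald test. With each library left out in turn it ran from 0 to 2, and it was 3 without both Ctrl replicate 1 and DTR replicate 3. The number of members past the threshold was 0 in all 16 settings, as was the number in each of the 6 lists. Leaving out a library moved the log2 fold change from -0.13 to 1.92 for Has1, from 0.40 to 1.43 for Has2, from -0.60 to 1.07 for Has3, from -0.06 to 0.50 for Cemip, from 0.40 to 1.06 for Vcan and from -0.02 to 0.06 for Cd44 (0.08 without both of the libraries named above), so that the sign turned for Has1, Has3, Cemip and Cd44. Has2, Vcan, Hyal1 and Hyal2 had the same sign in every setting. Has3 was at 0.33 with the mesenchymal covariate, and it could not be tested with at least 10 counts in every library. The cause of these changes was not tested. The order per length had 5 of 8 genes in the same place with the longest transcript as the length, because Hyal1 has shorter single transcripts than its joined exons.

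Replicates of the same number deviated together with r of 0.101, 0.128 and -0.026, so the numbers were not taken as pairs. With a replicate block, 0 genes passed, Has3 stood at 0.22, and no call changed. Has3 had 4 to 26 counts per library, near the floor of 3 counts, and its standard error of 0.769 was close to that of Has1 at 0.735, which had 257 counts or more in each library. Depth and the spread between libraries were not separated.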
